A study of Mus musculus with 10 samples.

Results

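A set of 9 genes that regulate transcription or RNA in blood stem cells were followed across the libraries: Hlf, Meis1, Mecom, Prdm16, Zfp521, Sox4, Hhex, Mllt3 and Msi2. They were chosen by name, with earlier results of these data known, from the 55359 genes in the deposited table of FPKM. This measure is the number of fragments mapped to a gene, scaled to its length and to the library total. All 9 were measured. The question addressed was how the expression of these regulators differed in Lin- bone marrow cells between mice without and with inducible loss of Dhx9, which encodes an RNA helicase. Of the 10 libraries, 5 came from Dhx9f/f mice (WT), in which both Dhx9 alleles carry loxP sites but no Cre was named, and 5 from Dhx9f/f;MX1 mice (cKO), which carry the same alleles and MX1-Cre. The genotype field of the latter reads "Dhx9 knock down". The Mx1 promoter responds to interferon and is active in many cell types, so that deletion after poly(I:C), an RNA mimic that elicits interferon, is not limited to blood cells. Whether the sequenced WT mice also received poly(I:C) was not stated, and neither the age nor the sex of these mice was given. Lin- cells were obtained by depleting cells that bear surface markers of mature blood lineages, which leaves a mixture of stem cells, progenitors and late precursors.

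Hematopoietic stem cells self-renew and give rise to all blood lineages, and a small set of DNA-binding proteins keeps that state. Hlf, Meis1, Mecom and Prdm16 are known for high levels in the most primitive cells, although not all are restricted to them. Sox4, Hhex and Zfp521 also act in lymphoid or multipotent progenitors. Mllt3 reads acylated histones and brings elongation factors to genes, and Msi2 binds mRNA and controls translation, so that neither acts as a sequence-specific transcription factor.

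The 250 bases before the annotated start were read from GRCm39, the build of the deposited data, for 8 of the 9 genes, because genes that move together can share promoter motifs. The windows of Hlf and Sox4, which had the largest differences between the groups, are shown whole. Capitals mark a match to a searched motif.

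Hlf, chr11:90281762-90282011, minus strand: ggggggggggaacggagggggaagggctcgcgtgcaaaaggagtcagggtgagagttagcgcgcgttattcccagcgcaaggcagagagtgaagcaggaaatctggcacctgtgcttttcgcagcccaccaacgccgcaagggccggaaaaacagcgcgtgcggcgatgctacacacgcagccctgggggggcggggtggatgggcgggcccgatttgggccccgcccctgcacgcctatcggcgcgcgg

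Sox4, chr13:29137697-29137946, minus strand: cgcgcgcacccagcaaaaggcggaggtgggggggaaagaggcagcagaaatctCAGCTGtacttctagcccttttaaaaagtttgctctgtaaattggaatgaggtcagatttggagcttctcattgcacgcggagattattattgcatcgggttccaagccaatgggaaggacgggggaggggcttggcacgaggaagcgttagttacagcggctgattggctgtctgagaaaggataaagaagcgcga

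In all, 6 motifs were searched on both strands: TGTGGT for RUNX factors, GGAAGT for ETS factors, AGATAA for factors of the GATA family, TGACAG for MEIS factors, TGACGTCA as the CRE and CAGCTG as an E-box. The MEIS and CRE letters begin alike, and no matches overlapped in these windows. Of the 8 windows, 5 held a match, each to 1 motif. The window of Sox4 held an E-box 197 bases before the start, and those of Hlf, Hhex and Mecom held none of the 6. The matches of the other 4 genes are shown with 30 bases around them, since their windows overlap an annotated exon of another transcript or gene.

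Meis1, RUNX, 139 bases before the start, chr11:18969118-18969147, minus strand: gtgccctgggtgTGTGGTgttagtgcctgg

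Prdm16, ETS, 81 bases before the start, chr4:154721689-154721718, minus strand: ggggagatccaaGGAAGTcgcgcagaaacc

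Mllt3, E-box, 236 bases before the start, chr4:87951829-87951858, minus strand: gggatggctcccCAGCTGgccgctctccca

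Msi2, CRE, 136 bases before the start, chr11:88609254-88609283, minus strand: aacggggtgcgTGACGTCAccgcattggtt

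Among 18623 promoters of the same length, 13.8% held the RUNX letters, 19.8% ETS, 9.31% GATA, 14.4% MEIS, 1.57% CRE and 11.4% the E-box. No motif was matched in more than 1 of the genes called lower in the cKO libraries, and the E-box of Sox4 was also matched in Mllt3, which was higher by adjusted p alone. The GC content was 68% for Hlf and 52% for Sox4, beside a median of 53.6% over all promoters.

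Limma was fitted on log2(FPKM + 0.1) for the 18742 genes that averaged 0.1 FPKM or more. A gene was called when its Benjamini-Hochberg adjusted p lay under 0.05 and its groups differed 2-fold or more. Library depth, found from genes with a single transcript, was 15041430 to 18711120 fragments in WT and 13837990 to 17191300 in cKO libraries. Dhx9 was at 68.96, 72.42, 72.18, 69.55 and 65.43 FPKM in WT replicates 1 to 5 and at 130.82, 148.80, 131.25, 156.49 and 131.98 FPKM in cKO replicates 1 to 5. The targeted gene was thus higher in every library labelled cKO (log2 difference 1.0 ± 0.0654, SE, limma adjusted p = 1.39e-05), which goes against that label, and every direction given here rests on the labels. A value per gene includes reads outside the deleted exons, and reads of single exons were not analysed here. Xist, transcribed from the inactive X of females, was at 99.19 to 127.76 FPKM in WT replicates 3, 4 and 5 and at most at 0.09 FPKM in the other 7 libraries, so results are also given for the 2 WT and 5 cKO libraries low in Xist. The library of cKO replicate 1 stood furthest apart: its chi-square per degree of freedom was 19.7 to 28.7 against the other cKO libraries. It was 3.53 to 9.74 among WT libraries. Replicate 4 came next, at 12.8 to 17.7 against cKO replicates 2, 3 and 5, which were at 6.12 to 6.7 among themselves. The neutrophil markers of cKO replicate 1 summed to 2632.69 FPKM against 148.13 to 1130.76 in the other cKO libraries, and its stem and progenitor surface markers to 70.98 against 120.06 to 140.15 FPKM. The latter gap rested on Cd48, at 29.41 against 72.80 to 106.63 FPKM in the other cKO libraries. Kit, at 31.11 FPKM, was the highest of the cKO libraries there. The study's methods describe n as individual mice in general, but the labels do not tie each library to a mouse, and otherwise p-values measure only the spread between these samples.

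Of the 9 regulators, limma called 6 lower in cKO libraries (Sox4, Hlf, Meis1, Zfp521, Prdm16 and Mecom) and 0 higher, whereas 16.8% of all genes tested were called lower and 4.6% higher. By adjusted p alone, 7 of 9 were lower and 1 was higher (Hhex and Mllt3 were added), beside 28.3% and 16.7% of all genes. For the 6 genes called lower, all 5 cKO libraries lay below all 5 WT libraries, and for Mllt3 all lay above, beside 21.6% and 10.6% of all genes. Without cKO replicate 1, 5 of the 9 were called lower, with log2 differences of -3.74 for Sox4, -2.94 for Hlf, -1.91 for Meis1, -1.79 for Zfp521 and -1.12 for Mecom, while Prdm16 missed the fold limit. The median log2 difference was -1.19 over the 9 genes and -0.11 over all genes tested. Hlf, Meis1 and Sox4 are also in a list of genes that the study displayed for these same libraries, so their direction is not independent evidence. All 9 were chosen with earlier results of these data known, so these counts are a description. In bulk RNA, fewer cells of a type and less RNA per cell cannot be told apart.

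**Figure D1:**
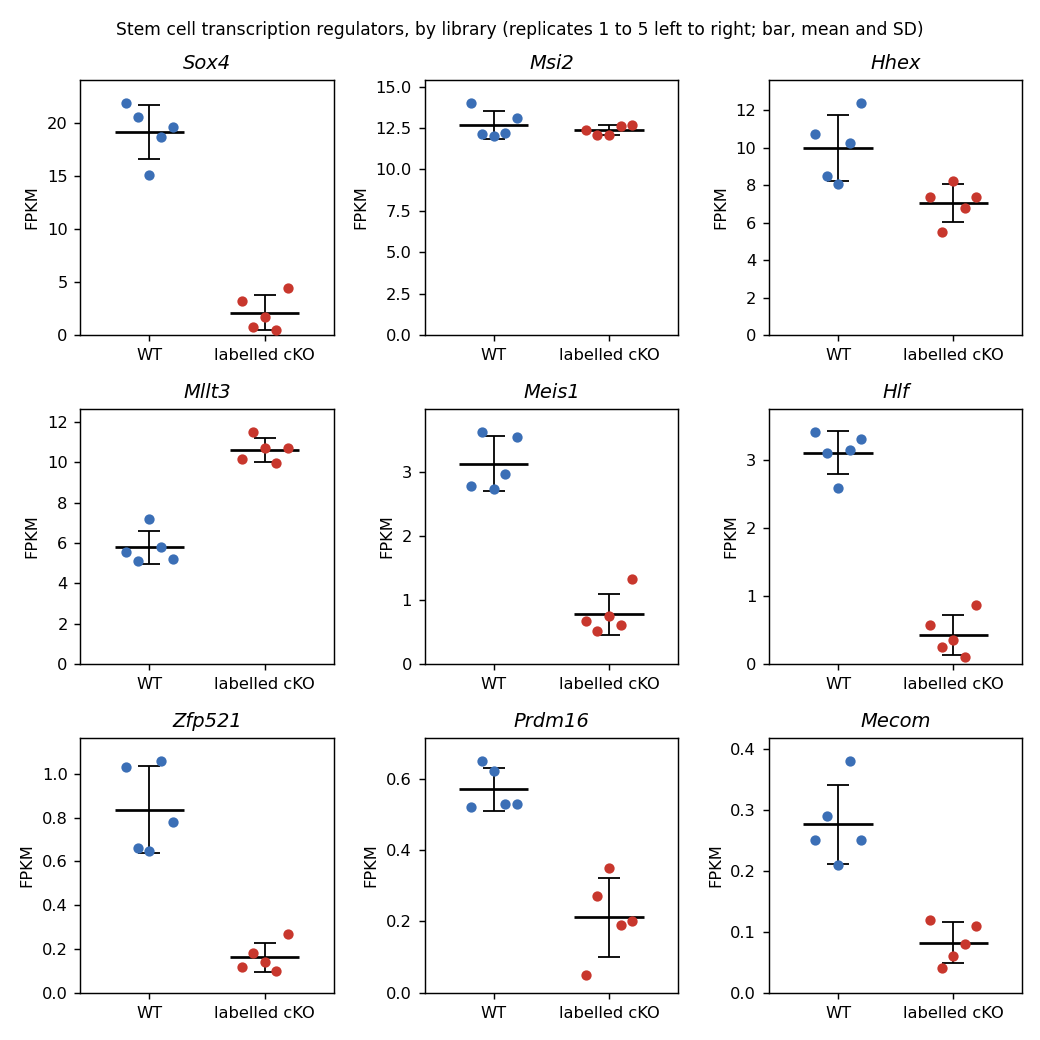
FPKM of the 9 regulators in each library (points, replicates 1 to 5 from left to right; blue, WT; red, labelled cKO), with the group mean (long bar) and SD (error bar, n = 5); each panel has its own axis from 0. The red points lie below all blue points for Sox4, Meis1, Hlf, Zfp521, Prdm16 and Mecom and above them for Mllt3, while those of Msi2 and Hhex overlap the blue points.

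Among the factors tied to the most primitive cells, Hlf and Meis1 fell to a small part of their WT level. Hlf (ENSMUSG00000003949, chr11:90227221-90281761, minus strand) encodes a PAR bZIP transcription factor that marks stem cells and sustains their quiescence. It was at 3.41, 3.10, 2.58, 3.14 and 3.30 FPKM in WT replicates 1 to 5 and at 0.58, 0.25, 0.35, 0.10 and 0.86 FPKM in cKO replicates 1 to 5. The highest cKO library, replicate 5, lay well below the lowest WT library, replicate 3, and cKO replicate 4 held about 10 fragments of Hlf. The mean was 3.11 ± 0.319 FPKM in WT and 0.428 ± 0.298 FPKM in cKO libraries (SD, n = 5 each), a log2 difference of -2.80 ± 0.368 (SE, limma adjusted p = 2.13e-04, exact permutation p = 0.00794, the smallest that 5 against 5 allows). Meis1 (ENSMUSG00000020160, chr11:18829817-18969749, minus strand) encodes a TALE homeodomain protein that binds DNA with HOX and PBX partners. Its level was 2.78, 3.62, 2.73, 2.96 and 3.54 FPKM in the WT libraries and 0.67, 0.52, 0.75, 0.61 and 1.32 FPKM in the cKO libraries. The other cKO libraries lay close together below replicate 5, which was still under every WT library. The means were 3.13 ± 0.424 and 0.774 ± 0.317 FPKM, and the log2 difference was -1.94 ± 0.227 (SE, limma adjusted p = 1.25e-04, exact permutation p = 0.00794). In the libraries low in Xist, Hlf differed by -2.87 (limma adjusted p = 0.0184) and Meis1 by -1.97 (limma adjusted p = 0.0140).

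The zinc-finger regulators Mecom, Prdm16 and Zfp521 were the least expressed of the 9 genes, and all were called lower. Mecom and Prdm16 encode related PR-domain proteins required for the long-term maintenance of stem cells, and Zfp521 encodes a cofactor of many zinc fingers that recruits corepressors in immature cells. Zfp521 (ENSMUSG00000024420, chr18:13820063-14105902, minus strand) was at 1.03, 0.66, 0.65, 1.06 and 0.78 FPKM in WT and at 0.12, 0.18, 0.14, 0.10 and 0.27 FPKM in cKO libraries. WT replicates 1 and 4 were the high ones, and all cKO values were well under the lowest WT value. The log2 difference was -1.85 ± 0.256 (SE, limma adjusted p = 2.81e-04) between means of 0.836 ± 0.198 and 0.162 ± 0.0672 FPKM (SD, n = 5 each). Prdm16 (ENSMUSG00000039410, chr4:154400581-154721625, minus strand) was at 0.52, 0.65, 0.62, 0.53 and 0.53 FPKM in WT and at 0.05, 0.27, 0.35, 0.19 and 0.20 FPKM in cKO libraries. The WT values were tight, whereas cKO replicate 1, with about 7 fragments, stood below the other 4. The log2 difference was -1.19 ± 0.301 (SE, limma adjusted p = 0.00809). Without cKO replicate 1 it was -0.94 (limma adjusted p = 0.0050), short of the fold limit, and in the libraries low in Xist it was -1.22 with a limma adjusted p of 0.0925. Mecom (ENSMUSG00000027684, chr3:30005439-30602157, minus strand) had the lowest level, 0.25, 0.29, 0.21, 0.38 and 0.25 FPKM in WT and 0.12, 0.04, 0.06, 0.08 and 0.11 FPKM in cKO libraries. The groups did not overlap, although about 9 to 22 fragments per library lay behind the cKO values. The log2 difference was -1.05 ± 0.249 (SE, limma adjusted p = 0.00549), which the pseudocount shrinks, since the WT mean was 3.37 times the cKO mean. The fold limit was also missed without WT replicate 4 or without cKO replicate 2 (both -0.96, limma adjusted p = 0.0157 and 0.0146), and in the libraries low in Xist the difference was -1.04 (limma adjusted p = 0.0382). The exact permutation p was 0.00794 for each of the 3 genes.

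Of the factors that act in progenitors and early lymphoid cells, Sox4 was called lower and Hhex was lower by adjusted p alone. Sox4 (ENSMUSG00000076431, chr13:29132902-29137696, minus strand, 1 transcript) encodes an HMG-box factor needed for early B-cell development. It was the most highly expressed of the 9 genes in WT, at 21.88, 20.57, 15.08, 18.70 and 19.58 FPKM, and was at 3.19, 0.74, 1.75, 0.49 and 4.48 FPKM in the cKO libraries. The cKO libraries were spread over a 9.14-fold range, from replicate 4 with about 35 fragments to replicate 5 with about 342, yet all lay far below WT. The means were 19.2 ± 2.57 and 2.13 ± 1.69 FPKM (SD, n = 5 each), and the log2 difference of -3.50 ± 0.495 (SE, limma adjusted p = 3.09e-04, exact permutation p = 0.00794) was the largest of the 9. It was -3.66 in the libraries low in Xist (limma adjusted p = 0.0205). Hhex (ENSMUSG00000024986, chr19:37423258-37429179, plus strand) encodes a homeobox repressor required for lymphoid specification. Its level was 10.76, 8.49, 8.07, 10.26 and 12.40 FPKM in WT and 7.40, 5.49, 8.21, 6.77 and 7.39 FPKM in cKO libraries. The groups overlapped, with cKO replicate 3 just above WT replicate 3. The log2 difference was -0.49 ± 0.141 (SE, 95% interval -0.80 to -0.18, limma adjusted p = 0.0147, exact permutation p = 0.0159), below the fold limit, and the limma adjusted p was 0.106 in the libraries low in Xist.

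Neither of the regulators that are not sequence-specific DNA-binding proteins was called lower. Mllt3 (ENSMUSG00000028496, chr4:87687837-87951610, minus strand) encodes AF9, a YEATS-domain reader that is known for stem cell maintenance and also for early erythroid and megakaryocytic fate. It was at 5.56, 5.13, 7.18, 5.80 and 5.22 FPKM in WT and at 10.17, 11.51, 10.73, 9.99 and 10.71 FPKM in cKO libraries. All cKO libraries lay within a narrow band above the highest WT library, replicate 3. The log2 difference was 0.88 ± 0.10 (SE, 95% interval 0.66 to 1.1, limma adjusted p = 1.15e-04, exact permutation p = 0.00794), a ratio of means of 1.84 and thus under the fold limit. It was 0.98 in the libraries low in Xist (limma adjusted p = 0.00415). Msi2 (ENSMUSG00000069769, chr11:88230208-88609339, minus strand) encodes an RNA-binding protein that sustains stem cell self-renewal. Its level was 14.01, 12.13, 11.99, 12.19 and 13.10 FPKM in WT and 12.40, 12.05, 12.10, 12.64 and 12.69 FPKM in cKO libraries. All cKO libraries lay within the WT range, and WT replicates 1 and 5 lay above all of them. The log2 difference was -0.03 ± 0.0648 (SE, limma adjusted p = 0.711, exact permutation p = 0.516), with a 95% interval of -0.18 to 0.11 and a sign that turned under other scalings and without WT replicate 1 (0.0033).

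**Figure D2:**
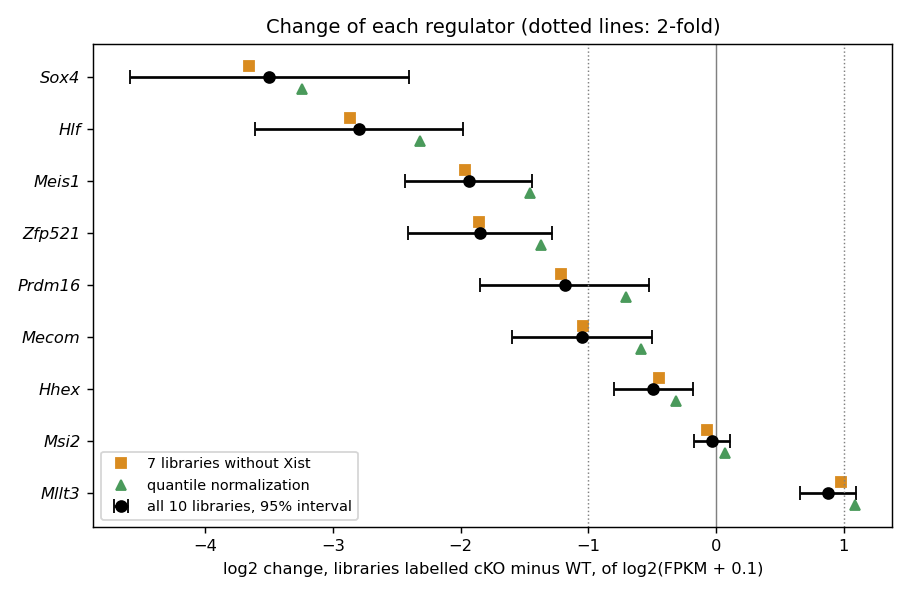
Log2 difference between libraries labelled cKO and WT of log2(FPKM + 0.1) for each regulator, with its 95% interval over 10 libraries (black), and the values in the 7 libraries low in Xist (orange) and after quantile normalization (green); dotted lines mark 2-fold. Sox4, Hlf, Meis1 and Zfp521 lie beyond the lower line under all 3 treatments, whereas Prdm16 and Mecom lie short of it after quantile normalization and Mllt3 passes the upper line there.

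The order of the levels per kilobase differed between the groups. In WT libraries Sox4 lay above Msi2 and Hhex, which overlapped each other, followed by Mllt3, by Meis1 and Hlf, which overlapped, by Zfp521 and Prdm16, which met at 0.65 FPKM, and by Mecom. In the cKO libraries Msi2 was highest, followed without overlap by Mllt3, Hhex and then Sox4, and the ranges of neighbours from Sox4 through Meis1, Hlf, Prdm16 and Zfp521 to Mecom overlapped. By its mean Sox4 was the first in WT and the fourth in the cKO libraries, but its cKO range also overlapped that of Hlf, and in cKO replicate 4 it lay below Meis1.

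The cKO libraries varied more for the genes that were lower than for the others. The coefficient of variation of Sox4 was 13.4% in WT and 79.3% in cKO libraries, that of Hlf 10.3% and 69.6%, and that of Prdm16 10.6% and 52.4%. Meis1, Zfp521 and Mecom were at 40.8% to 41.5% among the cKO libraries, whereas Hhex was at 14.3%, Mllt3 at 5.59% and Msi2 at 2.39%. These ratios are a description, and what lay behind them was not tested. The lowest cKO library held about 7 fragments of Prdm16, 9 of Mecom, 10 of Hlf and 21 of Zfp521. It held about 35 of Sox4 and 101 of Meis1.

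Single libraries were the highest or lowest for several genes. Among the cKO libraries, replicate 5 was the highest for 5 of the 9 genes (Sox4, Msi2, Meis1, Hlf and Zfp521), replicate 4 was the lowest for Sox4, Mllt3, Hlf and Zfp521, and replicate 2 for Msi2, Hhex, Meis1 and Mecom. Replicate 5 also had the lowest sum of erythroid markers among cKO libraries, 3435.11 FPKM against 4316.59 to 5121.83, and the highest sum of monocyte and dendritic markers, 218.51 FPKM, while replicate 4 had the lowest of the latter, 5.55 FPKM, and replicate 2 the next, 16.32 FPKM. The order of the cKO libraries from high to low, 5, 1, 3, 2 and 4, was the same for Sox4 and Hlf, and also for Cd34, which encodes a progenitor surface protein, and Mpo, the myeloperoxidase of granulocyte precursors. Other genes had other orders, such as Kit (1, 5, 3, 4 and 2), Meis1 (5, 3, 1, 4 and 2), Zfp521 (5, 2, 3, 1 and 4), Mecom (1, 5, 4, 3 and 2) and Prdm16 (3, 2, 5, 4 and 1). These genes were set side by side after their values were seen. Among the WT libraries, replicate 3 was the lowest for 7 of the 9 genes and the highest for Mllt3, and its erythroid sum was 2710.91 FPKM against 1279.36 to 1667.48 in the other 4. The part of these markers in the levels of the regulators was not tested.

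**Figure D3:**
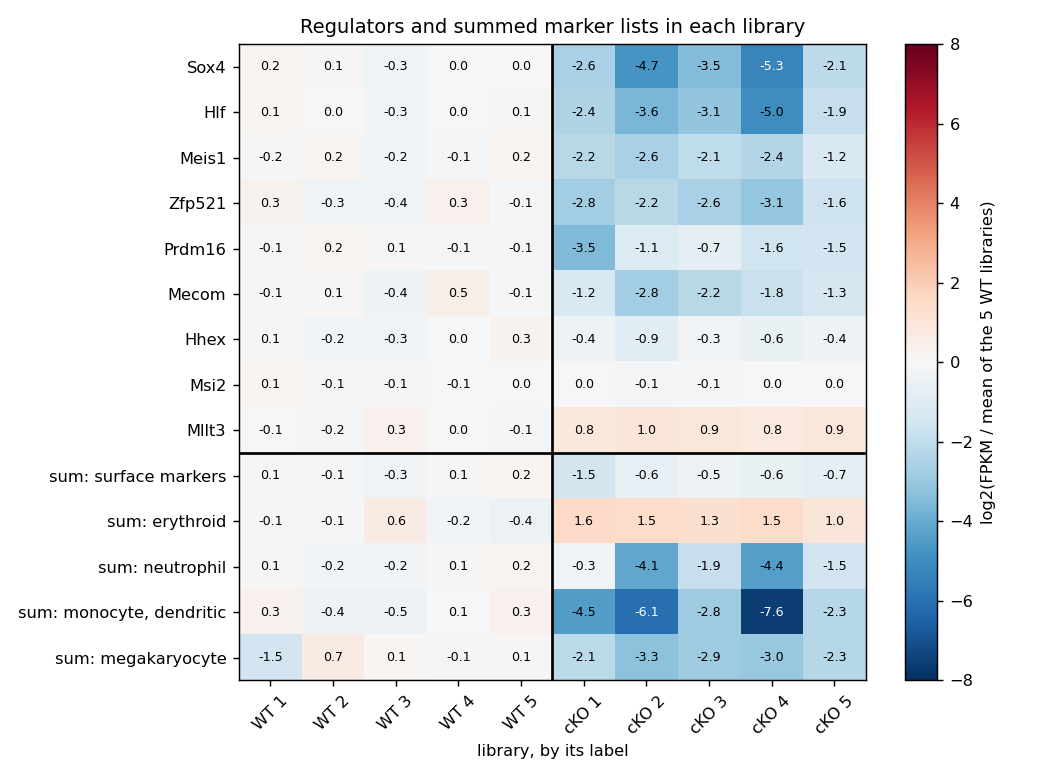
Log2 ratio of each library to the mean of the 5 WT libraries, for the 9 regulators (above the line) and for the summed FPKM of 5 marker lists (below it); blue is lower and red higher, with the value printed in each cell. Sox4 and Hlf are lowest in cKO replicates 2 and 4, where the neutrophil and monocyte sums are lowest too, Mllt3 and the erythroid sum are above the WT mean in all 5 cKO libraries, and Msi2 is near 0 in all 10.

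Markers of cell types in the Lin- fraction differed between the groups along with the regulators. The counts below stand beside 16.8% of all genes tested that were called lower and 4.6% called higher. Erythroid markers, led by Car2, Hbb-bs and Hba-a1, summed to 1279.36 to 2710.91 FPKM in WT and 3435.11 to 5121.83 FPKM in cKO libraries, and 8 of 16 were called higher and 0 lower. Stem and progenitor surface markers, led by Cd48, Kit and Cd34, summed to 163.34 to 224.56 and 70.98 to 140.15 FPKM, and 7 of 10 were called lower. Cd48 averaged 77.7 FPKM in WT and 82.4 FPKM in cKO libraries and did not pass (-0.04, limma adjusted p = 0.925). It weighs heavily on these sums, which therefore understate the fall of others such as Cd34, with means of 25.6 and 3.10 FPKM. Kit, the receptor of stem cell factor, was at 36.56 to 54.36 FPKM in WT and 18.73 to 31.11 FPKM in cKO libraries. Megakaryocyte markers had 12 of 12 called lower, monocyte and dendritic markers 11 of 12 and neutrophil markers 5 of 12. The neutrophil markers were not uniform: 9 of the 12 had log2 differences under 0, and the others lay above 0, up to 1.43, with 0 called higher. Mast cell and basophil markers had 6 of 9 called lower and 1 higher (2 higher without cKO replicate 4). B lymphoid markers, of a lineage in which Sox4 and Hhex also act, had 6 of 9 called lower, with sums of 32.72 to 39.37 FPKM in WT and 1.41 to 11.02 FPKM in cKO libraries, and T and NK markers 6 of 10. Endothelial markers, of cells that also express Mecom, had 5 of 9 called lower, and 1 also called higher without cKO replicate 1. Of the stromal markers 4 of 6 were called lower and 1 higher, the latter call being lost without any of WT replicates 3, 4 or 5 or cKO replicates 2, 3 or 4. Without cKO replicate 1, 7 of 16 erythroid markers were called higher, and 6 of 12 neutrophil markers and 10 of 12 monocyte and dendritic markers lower. No marker found in the table was at 0 in all libraries. The part of cell makeup in the differences of the 9 regulators was not tested.

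Relatives and binding partners of the 9 genes were listed from general knowledge, with results of these data known. Of 60 genes 51 were tested, 8 were called lower (15.7%) and 2 higher (3.92%), close to the 16.8% and 4.6% of all genes tested, and their median log2 difference was -0.17. Without WT replicate 5 or without cKO replicate 4, 5 were called lower. Among the PAR bZIP relatives of Hlf, Nfil3, a repressor that binds the same sites, was at 5.68 to 9.24 FPKM in WT and 0.40 to 1.67 FPKM in cKO libraries (-2.79 ± 0.369, SE). Dbp was called lower (-1.29), a call lost without any of WT replicates 2, 3 or 5 (-1.17, -1.29 and -1.30) or cKO replicates 1 or 4 (-0.88 and -1.27) and in the libraries low in Xist (-1.41, limma adjusted p = 0.172), and Tef, at -0.24, did not pass. Among the relatives and partners of Meis1 reported here, Pbx3, which encodes a homeodomain protein that binds DNA with Meis1, was called higher and rose from 1.27, 1.36, 1.41, 1.52 and 1.74 FPKM in the WT libraries to 3.96, 4.43, 3.34, 5.02 and 3.44 FPKM in the cKO libraries. All cKO libraries lay well above the highest WT library, replicate 5, and the log2 difference was 1.40. Pbx2 was at -0.09 and did not pass, and Hoxa9, a HOX partner, was at -0.98, just short of the fold limit, which it passed without WT replicate 3 (-1.06) or without cKO replicate 1 (-1.33). Meis2 and Meis3 were below the limit for testing.

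Of the PR-domain relatives and corepressors of Mecom and Prdm16, 1 of 9 was called lower, beside 16.8% of all genes tested. This was Prdm2, which encodes a histone methyltransferase, at -1.07 and at -0.95 without cKO replicate 2. Of the partners of Mllt3 in elongation, 2 of 14 were called lower, beside the same 16.8%. Aff3, of the family that scaffolds elongation complexes, fell from 8.80 ± 1.19 to 1.58 ± 0.701 FPKM (SD, n = 5 each). Mllt6 was at -1.01 and lost its call without WT replicate 1 (-0.91), cKO replicate 1 (-0.98) or cKO replicate 4 (-0.90). The closest relative of Mllt3, Mllt1, which encodes the YEATS protein ENL, was at 17.1 ± 0.784 and 17.3 ± 2.98 FPKM and did not pass, nor did Dot1l, the methyltransferase that AF9 binds, at 0.18. Around Hhex, Nkx2-3, a homeobox gene, was at 0.29 to 0.69 FPKM in WT and at 0.00 to 0.21 FPKM in cKO libraries, with 0.00 in 2 of them, and the corepressor Tle3 was at -1.01, with its call lost without WT replicates 1 or 5 (-0.96 and -0.97) or cKO replicates 3, 4 or 5 (-0.99, -0.92 and -1.0). Around Sox4, Sox6, a factor of erythroid maturation, was called higher, at 1.85 to 4.22 FPKM in WT and 6.80 to 10.07 FPKM in cKO libraries, while Sox12, of the same subgroup as Sox4, was at 0.20 and did not pass. Among the partners of Zfp521, 0 of 7 were called by limma. By adjusted p alone 2 were lower and 2 higher, beside 28.3% and 16.7% of all genes tested. Gata1, the erythroid factor that Zfp521 can bind, averaged 101 ± 6.84 FPKM in cKO libraries (SD, n = 5), a log2 difference of 0.81 from WT. Around Msi2, Igf2bp2, which encodes an mRNA-binding protein, was called lower at -1.12, and at -1.0, just short of the limit, without WT replicate 5, as it was in the libraries low in Xist (-0.91). Msi1 was listed at 0 in all libraries, and Numb, a known target of Msi proteins, was at -0.37, lower by adjusted p alone.

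**Figure D4:**
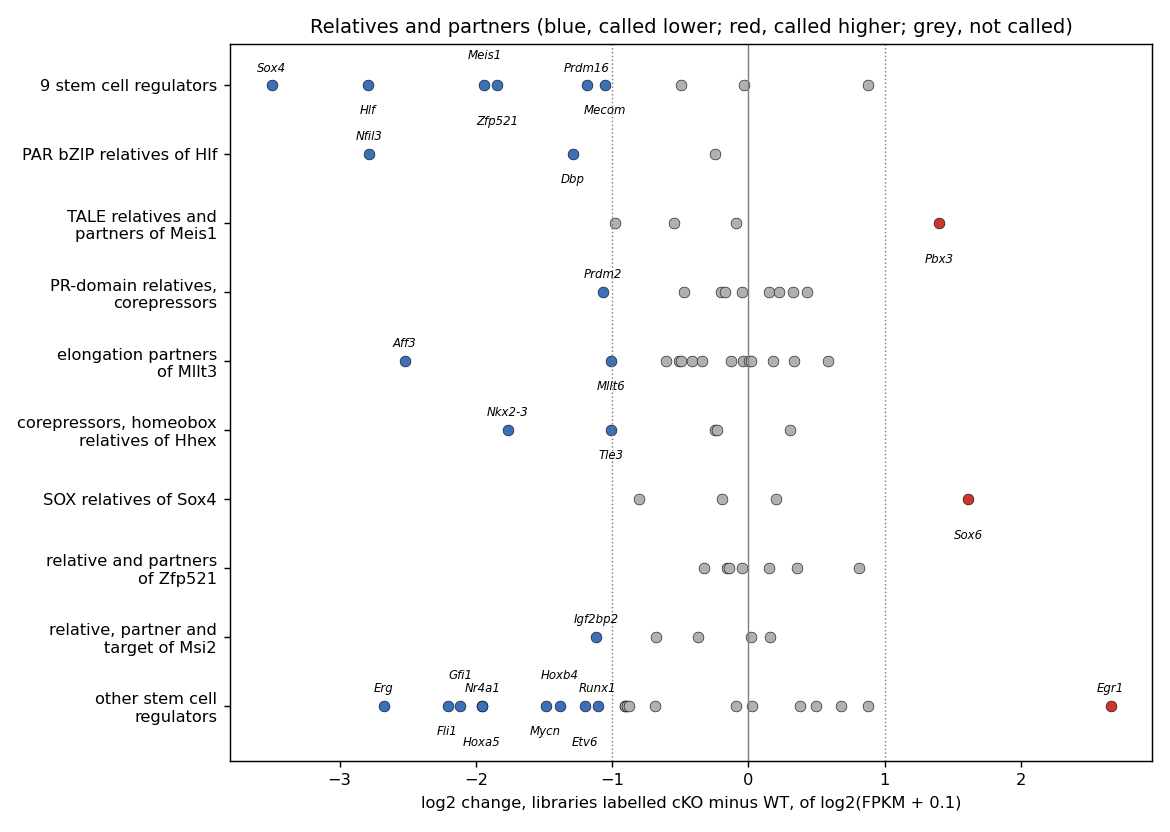
Log2 difference between libraries labelled cKO and WT (limma on log2(FPKM + 0.1), 10 libraries) for the 9 regulators, for 8 lists of their relatives and partners and for 21 other stem cell regulators; each point is a gene, blue if called lower, red if called higher and grey if not called, and dotted lines mark 2-fold. Most relatives and partners lie between the dotted lines, and 9 of the other regulators lie beyond the lower one.

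Of 22 other transcription regulators of stem cells, 21 were tested. Limma called 9 of them lower (42.9%) and 1 higher (4.76%), beside 16.8% and 4.6% of all genes tested, and their log2 differences had a median of -0.90. Several of these are also in the study's displayed list, so that their direction is not independent evidence. The ETS factors Erg and Fli1, which hold the stem cell and megakaryocyte programmes, were among the lower ones. Erg was at 14.18, 12.18, 9.91, 12.92 and 12.78 FPKM in WT and 2.50, 0.99, 2.27, 0.95 and 3.81 FPKM in cKO libraries, and Fli1 at 19.54 to 28.11 and 2.50 to 8.47 FPKM. As with Sox4 and Hlf, cKO replicate 5 was the highest and replicate 4 the lowest for both. Runx1, a master regulator of blood formation, fell less, from 12.2 ± 1.57 to 5.58 ± 0.474 FPKM (SD, n = 5 each). The repressor Etv6 fell from 35.4 ± 3.61 to 15.4 ± 2.71 FPKM. Gfi1 (-2.12), Hoxa5 (-1.96), Nr4a1 (-1.95), Mycn (-1.49) and Hoxb4 (-1.39) were the others called lower. In the libraries low in Xist the calls of Gfi1 (-2.08, limma adjusted p = 0.0918) and Hoxb4 (-1.46, limma adjusted p = 0.117) were lost. After quantile normalization the calls of Hoxb4 (-0.90) and Runx1 (-0.93) were lost. Egr1, an immediate-early factor, was the gene called higher, at 0.25 to 0.80 FPKM in WT and 1.74 to 9.64 FPKM in cKO libraries, the highest being replicate 3. By adjusted p alone 14 of the 21 were lower and 4 higher, beside 28.3% and 16.7% of all genes tested. The 4 higher ones were Egr1, Gfi1b (0.88), Tal1 (0.50) and Bmi1 (0.38). Bmi1 was at 18.67 to 21.31 FPKM in WT and 24.05 to 27.40 FPKM in cKO libraries. Lmo2 (0.02), Foxo3 (-0.09) and Tcf15 (0.68) did not pass. Gata2 was at -0.90 and passed the fold limit without WT replicate 3 (-1.02) or cKO replicates 3 or 5 (-1.04 and -1.01).

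For each regulator, the 2 closest other genes averaging 1 FPKM or more were found by the root-mean-square distance between centred values of log2(FPKM + 0.1) across the 10 libraries. Sox4 was closest to Arl11 (0.195), which encodes a small GTPase-like protein, and Gm2629 (0.218). Hlf was closest to Cerk (0.107), which encodes ceramide kinase, and Zfp608 (0.138). Meis1 was closest to Mex3b (0.166) and Cdc42bpb (0.172), Zfp521 to Cask (0.171) and Csrp3 (0.197), Prdm16 to Mdfic (0.150) and Tmem229b (0.180), and Mecom to Msra (0.121) and Abracl (0.134). Hhex was closest to 1110059E24Rik (0.0990) and Tgif1 (0.107), Mllt3 to Gm14494 (0.112), and Msi2 to Acin1 (0.0421) and Rabgap1 (0.0449). None of the regulators was among the closest genes of another, although Zfp521, Prdm16 and Mecom, averaging under 1 FPKM, were not eligible. The values of Gm2629 and Gm14494 are uncertain if their reads also match similar copies, which was not examined.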

How the data were processed

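Lin- bone marrow libraries of 5 WT and 5 cKO samples, grouped by their labels, were sequenced with paired ends on an Illumina instrument. The authors removed adapters and reads of low quality, aligned the rest to GRCm39 and deposited FPKM per gene, rounded to 2 decimals. The processing notes of the submitters name cutadapt 1.9.1, HISAT2 2.0.1 and HTSeq 0.6.1. The annotation behind the gene lengths was not given in the sources used here. FPKM are relative to the library total, so that a group of abundant transcripts lowers all others.

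The DESeq2 test used by the authors needs counts and was not run. Instead, log2(FPKM + 0.1) was tested with limma 3.58.1 (lmFit, eBayes with a trend, two-sided, Benjamini-Hochberg) in R 4.3.3, over genes that averaged 0.1 FPKM or more. Fold changes on this scale understate those of low genes. Exact permutation tests of the difference of means (two-sided) used scipy 1.17.1 in Python 3.11.15. Steps were tested on simulated data. Of the 28093 genes above 0, 27828 had a symbol in GENCODE vM39, which gave coordinates and canonical starts. Depth was recovered from genes with a single transcript of 500 to 3000 bp, where 96.7% to 98.2% of values up to 20 fragments were whole within 0.2. Taking 3 fragments as the floor, a gene of 1 kb was detectable at 0.160 to 0.217 FPKM. Fragment numbers are approximate for genes with several transcripts. No pair of libraries within a group agreed within sampling noise (chi-square per degree of freedom of 3.53 to 28.7).

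The regulators, partner lists and marker lists were chosen with earlier results of these data known. Named genes were the 9 regulators, Dhx9, the genes of the partner lists, up to 3 genes with the highest mean of each marker list, and the 2 closest genes to each regulator, less 2 genes that are not reported here, of which 1 was also left out of the partner lists. Xist and Mpo beside Cd34 were named after values were seen, Mpo also being the highest neutrophil marker. Promoters were the 250 bases before canonical starts, and Zfp521 was left out of that search. Alternatives were other pseudocounts, filters and scalings, no trend, a Xist covariate, the libraries low in Xist, a replicate block, adjusted p alone and each library left out. The marker lists were recounted without each library after the data were seen.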

Additional observations from a re-analysis of the deposited data

Results flagged for a closer look

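Meis1 in cKO replicate 5 was at 1.32 FPKM, while the other cKO libraries were at 0.52 to 0.75 FPKM. Its gap to the nearest of them, divided by the range of the group, was 0.7125, above the critical value of 0.71 of Dixon's test for 5 samples. Of the 20 groups of 5 so tested, 1 passed, and chance gives about 1 in 20. Without that library the log2 difference of Meis1 was -2.13, and its call did not change.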

How the results depend on the processing

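Limma called 6 regulators lower and 0 higher. The 6 became 3 with a pseudocount of 1, which shrank the log2 differences of Zfp521 to -0.66, Prdm16 to -0.38 and Mecom to -0.24, and 3 with a mean of at least 1 FPKM, under which these 3 genes were not tested. Quantile normalization called 1 regulator higher, Mllt3 (1.09), and lost Prdm16 (-0.70) and Mecom (-0.59). Median-ratio scaling lost Mecom (-0.99), and the libraries low in Xist lost Prdm16 (-1.22). By adjusted p alone, Hhex (-0.49) and Mllt3 (0.88) passed, with 1 called higher. Msi2 changed sign with median-ratio scaling (0.071), quantile normalization (0.070) and without WT replicate 1 (0.0033). Among the partner genes, 17 called lower became 6 with a pseudocount of 1, 10 with quantile normalization and 32 by adjusted p alone, and 3 called higher became 13 by adjusted p alone. Prdm2, Mllt6 and Tle3 lost their calls under 2 scalings each (-0.86, -0.56 and -0.75 at the weakest). Dbp (-0.78), Igf2bp2 (-0.67), Runx1 (-0.93) and Hoxb4 (-0.90) lost theirs under 1 each. Dhx9 stood at the fold limit and fell short of it with a pseudocount of 1 (0.99), an equal sum per library (0.96), the same without erythroid genes (0.97), quantile normalization (0.89), the libraries low in Xist (0.98) and a Xist covariate (0.98). With each library left out, the log2 difference was 0.96 to 1.0 for Dhx9, -1.34 to -0.94 for Prdm16, -1.12 to -0.96 for Mecom and -0.052 to 0.0033 for Msi2. Sox4, Hlf and Meis1 stayed called lower under all alternatives run. The median over all genes was -0.11, 0.10 with quantile normalization and -0.01 with median-ratio scaling, so differences near these values have no fixed direction, and the share of calls that were higher was 21.5%, 41.3% and 25.5%. Over all genes, 3153 lower and 862 higher calls became 1486 and 356 with a pseudocount of 1 and 5300 and 3138 by adjusted p alone. The causes of these shifts were not tested. Whether replicate numbers pair the samples was not settled by these values. Same-numbered libraries correlated at -0.010 to 0.117 in their deviations, and 3 of 5 numbers matched best with their own. The replicate block left 6 regulators called lower and gave 3107 lower and 857 higher calls over all genes. Depth limits Mecom, Prdm16 and Hlf most, which had 7 to 10 fragments in their lowest library.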

Other observations

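Lin28b, which encodes an RNA-binding protein of fetal stem cells and was listed beside Msi2, had a mean under 0.1 FPKM. It was therefore left out of the fit used for the calls here, and its result without that filter is not given. Lin28b was at 0.01, 0.00, 0.03, 0.01 and 0.04 FPKM in WT replicates 1 to 5 and at 0.14, 0.15, 0.30, 0.12 and 0.15 FPKM in cKO replicates 1 to 5. All libraries labelled cKO lay above all WT libraries. It was singled out after its values were seen.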
